A study of Mus musculus with 4 samples.

Results

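The genes described here are 31 genes of cholesterol and fatty acid synthesis, chosen by symbol from the 17039 genes of the deposited expression table. They comprise 5 regulators and sterol carriers of the SREBP system, 7 enzymes of the mevalonate pathway, 11 enzymes that carry squalene formation and sterol synthesis, and 8 enzymes that make, desaturate or elongate fatty acids. All 31 were found in the table, and all 31 passed the filter on low counts that left 12887 genes for testing. RNA was sequenced from splenic T cells of C57BL/6 mice, separated with magnetic beads, and the sample titles name them as CD8. Of the 4 libraries, 2 came from mice that had received an adeno-associated virus expressing interleukin-27 (AAV-IL-27) by intramuscular injection and 2 from mice given a control virus (AAV-ctrl), about a month before. They are called IL-27 library 1 and 3 and control library 1 and 3 after the replicate numbers in the titles. Nothing in the labels says that the libraries came from separate mice or how many mice each held, so the p-values measure only the spread between these libraries, which may be technical. The sources used here do not give age, sex, viral dose or the promoter of the virus, nor which cells of the mouse made the cytokine.

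Mammalian cells adjust lipid synthesis through SREBPs, transcription factors that are made as membrane proteins of the endoplasmic reticulum. When sterols are scarce, the escort protein SCAP carries them to the Golgi, where proteases release the active factor, and when sterols are plentiful INSIG proteins hold SCAP back. The factor encoded by Srebf2 acts mainly on cholesterol genes and the main product of Srebf1 on fatty acid genes. T cells that divide build new membrane and are known to raise both arms of this program.

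Total counts ranged from 15742523 to 16182453 per library. All 14 T cell markers were detected in every library, with Cd8a at 408 and 349 FPKM in IL-27 libraries and 321 and 335 in controls. Of these markers 8 rose, Cd8a among them, and 2 fell, and their summed level was 3378 and 3010 FPKM in IL-27 libraries and 2862 and 2917 in controls. FPKM scale each count to the length of its gene and to the depth of its library, so levels of different genes can be compared. Other cell types were also present, and they differed between the groups. The summed level of 8 B cell markers was 856 and 1192 FPKM in IL-27 libraries 1 and 3 and 1888 and 1649 FPKM in controls, and 3 of the 8 fell. The summed level of 14 neutrophil markers was 1041 and 1709 FPKM in AAV-IL-27 against 32.7 and 22.7 in controls, where Prtn3 and Cebpe were at 0 in control library 3, and 13 of the 14 rose. Of 10 macrophage and monocyte markers 6 fell and 1 rose, with summed levels of 163 and 215 FPKM in IL-27 libraries and 202 and 164 in controls. Lyz2 (89.7 and 143 FPKM in IL-27 libraries, 60.3 and 63.2 in controls), which did not pass, and Cd68, which rose, had the highest levels in those sums. The median log2 fold change of the 10 was -1.22. Of 9 natural killer cell markers 7 fell and 2 rose, with sums of 190 and 159 FPKM in IL-27 libraries and 172 and 156 in controls. The 2 that rose, Gzma (139 and 112 FPKM in IL-27 libraries, 76.4 and 66.5 in controls) and Klrk1, had the highest levels in those sums. The 7 that fell had log2 fold changes from -3.59 (Klra8) to -0.59 (S1pr5). None of 5 tested erythroid markers passed, with sums of 41.0 and 76.9 FPKM in IL-27 libraries and 105 and 57.6 in controls. All 16 cell cycle genes rose, from sums of 214 and 207 FPKM in controls to 572 and 585 in IL-27 libraries. In such bulk samples, fewer cells of a type and less RNA per cell cannot be told apart, and the part of these shifts in the results below was not tested except where a value is given.

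The lipid synthesis genes did not move as 1 block. By edgeR's quasi-likelihood test, with p-values adjusted over all 12887 genes, 12 of the 31 were higher in IL-27 libraries, 3 were lower and 16 did not pass an adjusted p of 0.05. That is 48.4% of the members called, beside 39.0% of all tested genes called in either direction. Over all genes tested, 21.3% were called higher and 17.7% lower. The median log2 fold change of the members was 0.05, against -0.01 for all genes, and their median size without regard to sign was 0.26 against 0.23. None of the 31 changed 2-fold, beside 1106 of all 12887 genes tested. Changes of more than 1.5-fold in either direction were found for 5, namely Idi1, Elovl6, Pmvk, Scd1 and Tm7sf2, beside 18.7% of all genes tested. The groups did not overlap in CPM (counts scaled to library size) for 26 of the 31, beside 73.0% of all genes tested.

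Called genes made up 62.5% of the fatty acid enzymes and 42.9% of the mevalonate enzymes. The share was 54.5% for squalene and sterol enzymes and 20% for regulators and sterol carriers, beside 39.0% of all tested genes. With 5 to 11 genes per arm these shares rest on few genes, and no test compared the arms. Of the 8 fatty acid enzymes 5 rose and none fell past the threshold (median log2 fold change 0.27), while Scd1, the most abundant of them in controls, stood lower without passing. Of the 7 mevalonate enzymes 3 rose and 4 did not pass (median 0.26). Of the 11 squalene and sterol enzymes 4 rose, 2 fell and 5 did not pass (median -0.08). Among the 5 regulators and sterol carriers Srebf2 fell and 4 did not pass (median 0.05). The summed FPKM of the 31 genes differed little between groups, at 499 and 514 in IL-27 libraries and 532 and 515 in controls. Without Scd1 the sums were 462 and 456 in IL-27 libraries and 450 and 438 in controls.

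**Figure D1:**
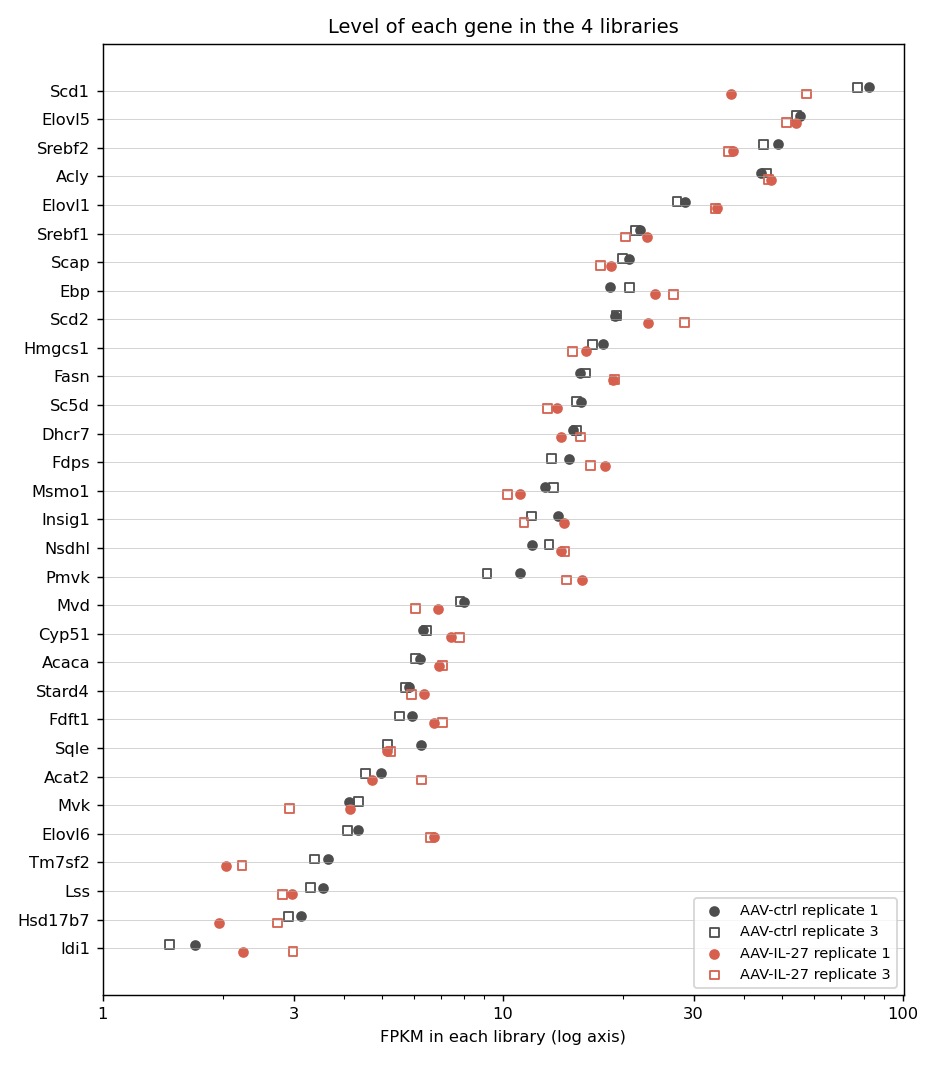
FPKM on a log axis for the 31 genes in each of the 4 libraries, ordered by the mean of the control libraries (grey: AAV-ctrl, red: AAV-IL-27, filled circles: library 1, open squares: library 3). Levels run from 1.47 FPKM for Idi1 to 82.4 FPKM for Scd1, and most genes keep all 4 libraries close together, with Scd1 as the widest exception.

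Levels per length spanned a wide range. In AAV-ctrl Scd1 led with 82.4 and 76.9 FPKM, followed by Elovl5 with 55.4 and 54.3, and Idi1 was lowest with 1.70 and 1.47. Srebf2 (48.9 and 44.9 FPKM) and Acly (44.2 and 45.6) came next after Elovl5, and their AAV-ctrl values overlapped, so their order is within the spread. In AAV-IL-27 the order at the top changed, since Elovl5 (54.1 and 51.3 FPKM), Scd1 (37.2 and 57.4) and Acly (46.9 and 46.3) overlapped or nearly overlapped. At the low end in both groups lay Idi1, Hsd17b7, Lss and Tm7sf2, each below 4 FPKM in every library.

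The count of calls changed with the libraries kept and with the scaling. Where 1 control library is left out, the other is assumed to vary like the IL-27 libraries. Those differed more from each other than the controls did (chi-square over its degrees of freedom 6.47 against 2.49). A call lost in such a fit, here and below, can thus leave the estimate nearly as it was. Without control library 1 and 3 the log2 fold change of Cyp51 was 0.291 and 0.318, against 0.305 with all libraries. That of Nsdhl was 0.165 and 0.304, against 0.234. Without IL-27 library 1, 11 members rose and 4 fell, and without IL-27 library 3, 10 rose and 5 fell. Without control library 1, 4 members rose and none fell, and without control library 3, 3 rose and 1 fell. Over all genes tested the calls dropped from 5023 to 2635 and 2743 without a control library. Those calls over all genes were 2745 higher and 2278 lower with TMM factors, 2362 and 2979 with upper-quartile factors, 2363 and 2975 with library size alone, and 1451 and 3199 when scaled to the summed T cell markers. With the last of these the median over all genes went from -0.01 to -0.16, and the median of the members lay 0.06 above that of all genes before and 0.05 above it after, as a shift common to all genes leaves it. With that scaling, 4 members rose (Pmvk, Idi1, Scd2 and Elovl6) and 7 fell (Lss, Tm7sf2, Msmo1, Hsd17b7, Sc5d, Srebf2 and Scd1).

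**Figure D2:**
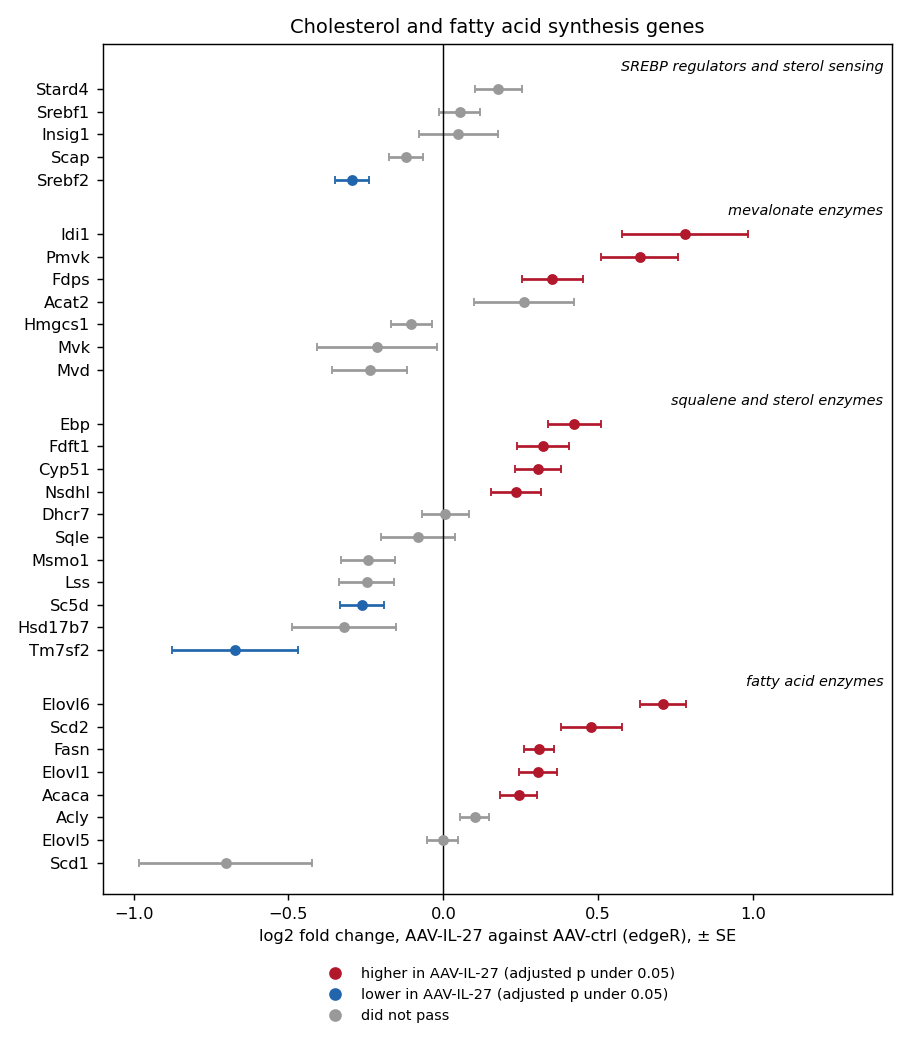
Log2 fold change of AAV-IL-27 against AAV-ctrl from edgeR for each gene, with its SE as bars, grouped by role (red: higher, blue: lower, grey: did not pass). Most fatty acid enzymes lie to the right of 0, while sterol enzymes lie on both sides, from -0.67 for Tm7sf2 to 0.78 for Idi1.

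Promoter sequences of 6 members are shown as examples of the DNA before start sites. They were picked and do not stand for all genes that rose or fell. RefSeq windows on build GRCm38.p6, from 250 bases before to 50 bases after a start site, were matched for 25 of the 31 members and not for Fdft1, Fdps, Scd1, Scd2, Sqle and Stard4. The stretches below hold the 250 bases before the start site, written 5′ to 3′ on the gene's strand. Idi1 (chr13:8885356-8885605, plus strand), Fasn (chr11:120824548-120824797, minus strand) and Ebp (chrX:8193513-8193762, minus strand) rose, and Srebf2 (chr15:82147019-82147268, plus strand) and Tm7sf2 (chr19:6067851-6068100, minus strand) fell. The start site used for Fasn, at 120824547, lies inside the RefSeq span of the gene, whose edge is at 120825166, so its stretch is internal to that span. In these 5 the capitals mark the CCAAT box, the letters that the factor NF-Y, a known partner of SREBPs, binds, on either strand.
Idi1: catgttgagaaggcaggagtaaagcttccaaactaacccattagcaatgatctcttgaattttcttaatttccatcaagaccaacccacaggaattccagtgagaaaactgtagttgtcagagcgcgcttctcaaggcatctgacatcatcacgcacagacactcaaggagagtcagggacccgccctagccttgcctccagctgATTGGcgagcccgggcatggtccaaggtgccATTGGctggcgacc
Fasn: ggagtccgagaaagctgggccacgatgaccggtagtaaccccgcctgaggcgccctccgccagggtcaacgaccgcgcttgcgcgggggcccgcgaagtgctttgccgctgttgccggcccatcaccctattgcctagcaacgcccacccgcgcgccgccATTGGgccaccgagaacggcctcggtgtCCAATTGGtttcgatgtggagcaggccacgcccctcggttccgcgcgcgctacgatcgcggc
Ebp: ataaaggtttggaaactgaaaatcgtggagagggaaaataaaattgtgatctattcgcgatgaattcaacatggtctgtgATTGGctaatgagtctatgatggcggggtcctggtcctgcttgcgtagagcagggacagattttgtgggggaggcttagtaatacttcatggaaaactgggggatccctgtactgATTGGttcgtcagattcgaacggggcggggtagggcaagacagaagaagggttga
Srebf2: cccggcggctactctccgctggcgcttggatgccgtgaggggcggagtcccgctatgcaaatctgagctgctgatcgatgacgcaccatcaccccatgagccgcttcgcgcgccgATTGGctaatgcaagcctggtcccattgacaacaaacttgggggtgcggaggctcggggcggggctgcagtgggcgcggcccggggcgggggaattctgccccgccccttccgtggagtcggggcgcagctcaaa
Tm7sf2: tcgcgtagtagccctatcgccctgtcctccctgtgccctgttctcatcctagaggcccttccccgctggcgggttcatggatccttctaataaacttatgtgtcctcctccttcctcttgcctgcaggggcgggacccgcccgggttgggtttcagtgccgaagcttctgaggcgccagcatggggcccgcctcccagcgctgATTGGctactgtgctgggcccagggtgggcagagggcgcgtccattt
In Hmgcs1 (chr13:119690101-119690350, plus strand), which did not pass the test, the capitals mark the only match to a sterol regulatory element written as TCACNCCAC.
Hmgcs1: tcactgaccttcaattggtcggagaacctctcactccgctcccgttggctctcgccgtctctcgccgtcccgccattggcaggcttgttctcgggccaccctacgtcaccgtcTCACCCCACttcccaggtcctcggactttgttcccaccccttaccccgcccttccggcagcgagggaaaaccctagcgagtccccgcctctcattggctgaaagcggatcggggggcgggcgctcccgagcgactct

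The CCAAT box was common among these genes whether they rose or not. Searched on both strands over the windows of 300 bases, CCAAT was found in 21 of 25 members (84.0%), beside 11096 of 27025 genes with a window (41.1%). Among tested genes with a window the share was 43.15%. In members that rose and are not printed, matches per window ranged from 0 (Elovl6, Acaca and 1 of the windows each of Pmvk and Elovl1) to 4 (Nsdhl). CCAAT was present in 7 of 9 members that rose, 3 of 3 that fell and 11 of 13 that did not pass. In the printed stretches it began 45 and 14 bases before the start site of Idi1, 90, 62 and 59 before that of Fasn (the last pair overlap each other), 170 and 55 before that of Ebp, 135 before that of Srebf2 and 47 before that of Tm7sf2. No match to one of the motifs searched overlapped a match to another in the windows of these 6 genes. The GC box GGGCGG was found in 20 of 25 members (80.0%), beside 38.2% of genes with a window and 65.7% of tested genes with one. The GC box was in 5 of 9 members that rose, 3 of 3 that fell and 12 of 13 that did not pass. The palindrome CACGTG, an E-box, was found in 6 of 25 members (24%), beside 8.09% of genes and 11.5% of tested genes with a window. It was in none of the 9 that rose, in 1 of 3 that fell and in 5 of 13 that did not pass. TCACNCCAC was found in 1 of 25 members, 137 bases before the start site of Hmgcs1, beside 1.44% of genes. Elovl6 and Acaca, which rose, held none of these 4 motifs in their windows. The only Acaca window (chr11:84195188-84195487, plus strand) lies inside the RefSeq span of the gene, which begins at 84129635. The DNA before that edge was not searched. These matches describe letters only.

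Among the regulators, the gene for the sterol-arm factor fell while the genes around it moved less. Srebf2 (NCBI Gene 20788, chromosome 15, 82147269 to 82205379) stood at 37.7 and 36.7 FPKM in IL-27 libraries 1 and 3 and at 48.9 and 44.9 FPKM in controls. Both IL-27 libraries lay below both controls. The log2 fold change was -0.29 ± 0.055 (SE), or 18.5% lower (edgeR adjusted p = 0.00283). Without control library 1 it was -0.23 and did not pass (adjusted p = 0.0557). Srebf1, which encodes the fatty acid arm's factor, was at 22.9 and 20.2 FPKM in IL-27 libraries and 22.0 and 21.4 in controls. Its groups overlapped (log2 fold change 0.05 ± 0.066, adjusted p = 0.569), and its sign turned when scaled to the T cell markers (-0.10) and without IL-27 library 1 (-0.04).

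The SREBP escort gene Scap was at 18.7 and 17.6 FPKM in IL-27 libraries and 20.7 and 20.0 in controls. The IL-27 libraries were both lower, but the difference did not pass (-0.12 ± 0.056, adjusted p = 0.12). With upper-quartile factors or library size alone Scap passed as lower. Insig1, whose product retains SCAP in the endoplasmic reticulum and which is itself a sterol-repressed SREBP target, was at 14.3 and 11.3 FPKM in IL-27 libraries and 13.8 and 11.8 in controls. Library 3 had the lower value in both groups, and the group means were nearly equal (0.05 ± 0.13, adjusted p = 0.794). Its sign turned under several settings. Stard4, which carries cholesterol between membranes, was at 6.34 and 5.93 FPKM in IL-27 libraries and 5.82 and 5.72 in controls (0.18 ± 0.075, adjusted p = 0.0928).

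Mevalonate enzymes early in the path did not pass, while 3 later ones rose. Acat2, a thiolase that joins acetyl-CoA units, was at 4.70 and 6.28 FPKM in IL-27 libraries and 4.97 and 4.55 in controls, with overlapping groups (0.26 ± 0.16, adjusted p = 0.237). Without IL-27 library 1 the log2 fold change of Acat2 was 0.455 and passed as higher (adjusted p = 0.0363), and without IL-27 library 3 it was 0.03. Hmgcs1, which makes HMG-CoA and is a classic SREBP target, was at 16.1 and 15.0 FPKM in IL-27 libraries and 17.8 and 16.8 in controls (-0.10 ± 0.067, adjusted p = 0.251). Mvk, mevalonate kinase, was at 4.16 and 2.93 FPKM in IL-27 libraries and 4.13 and 4.36 in controls. Only IL-27 library 3 was low (-0.21 ± 0.19, adjusted p = 0.417), and without that library the difference was 0.01.

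Pmvk, phosphomevalonate kinase (NCBI Gene 68603, chromosome 3, 89454541 to 89469014), was at 15.8 and 14.5 FPKM in IL-27 libraries and 11.03 and 9.14 in controls. Both IL-27 libraries were higher than both controls, and the gene rose 1.55-fold (0.63 ± 0.12, adjusted p = 0.00332). Without control library 3 the log2 fold change was 0.51 and missed the threshold (adjusted p = 0.0515). Mvd, the decarboxylase that follows it, was lower in both IL-27 libraries, at 6.90 and 6.06 FPKM against 8.0 and 7.82, but did not pass (-0.24 ± 0.12, adjusted p = 0.147). Neighbouring steps of the same path thus had opposite signs, and 1 of them passed.

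Idi1, the isomerase of isopentenyl diphosphate (NCBI Gene 319554, chromosome 13, 8885606 to 8892396), had the largest log2 fold change of the 31. Its level was 2.24 and 2.99 FPKM in IL-27 libraries and 1.70 and 1.47 in controls, from 104 and 139 expected counts against 77.3 and 66.4. The groups did not overlap, and the gene rose 1.72-fold (0.78 ± 0.20, adjusted p = 0.0138). These low counts limit it. Its call was lost with DESeq2 (adjusted p = 0.0569) and without IL-27 library 3 (0.066), control library 1 (0.0627) or control library 3 (0.122). Fdps, which makes farnesyl diphosphate, was at 18.0 and 16.6 FPKM in IL-27 libraries and 14.6 and 13.2 in controls and rose 1.28-fold (0.35 ± 0.098, adjusted p = 0.0197). The call of Fdps was lost with DESeq2 (adjusted p = 0.146), without IL-27 library 1 (0.0747), control library 1 (0.0596) or control library 3 (0.17), and when scaled to the T cell markers (0.295).

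Sequence shared with transcripts of other genes could make some of these values uncertain. Where those genes lie was not checked. In GENCODE transcripts, 86.4% of the distinct 50-base stretches of the longest Fdps transcript also occur in transcripts of other genes, most of them in Gm43738. The share was 52.6% for Acaca (Gm5182), 45.9% for Acat2 (Acat3), 21.3% for Idi1 (Gm13502) and 10.9% for Fdft1 (Gm6781). Another 6 members, Scd1, Scd2, Elovl6, Insig1, Sc5d and Cyp51, shared less than 5% of their stretches, and 20 shared none. Expected counts were whole in all 4 libraries for Fdps and Acaca, and in no library for Acat2, Idi1 and Fdft1. They were also whole in no library for Srebf1 and Hsd17b7, which shared no stretches. The sources used here do not say how the authors' software divided reads among genes that share sequence.

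The enzymes from squalene to cholesterol went in both directions along the path. Fdft1, squalene synthase, was at 6.72 and 7.06 FPKM in IL-27 libraries and 5.93 and 5.53 in controls, and rose 1.25-fold (0.32 ± 0.084, adjusted p = 0.0141). It lost its call without control library 1 (adjusted p = 0.063) or control library 3 (0.126). Sqle, squalene epoxidase and a rate-limiting step, was at 5.13 and 5.26 FPKM in IL-27 libraries and 6.24 and 5.16 in controls. Its groups overlapped (-0.08 ± 0.12, adjusted p = 0.625), and without control library 1 the sign turned (0.06). Lss, lanosterol synthase, was at 2.98 and 2.81 FPKM in IL-27 libraries and 3.56 and 3.30 in controls. Both IL-27 libraries were lower, just outside the threshold (-0.25 ± 0.09, adjusted p = 0.0548).

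The enzymes that strip methyl groups from lanosterol were split. Cyp51, the lanosterol demethylase, was at 7.44 and 7.78 FPKM in IL-27 libraries and 6.33 and 6.44 in controls, and rose 1.24-fold (0.31 ± 0.074, adjusted p = 0.00995), a call lost without control library 1 (adjusted p = 0.0841) or control library 3 (0.066). Msmo1, the sterol methyl oxidase, was at 11.1 and 10.3 FPKM in IL-27 libraries and 12.8 and 13.4 in controls, lower in both libraries without passing (-0.24 ± 0.087, adjusted p = 0.0533). Nsdhl, the dehydrogenase that acts with it, was at 14.0 and 14.3 FPKM in IL-27 libraries and 11.9 and 13.1 in controls. It rose 1.18-fold (0.23 ± 0.08, adjusted p = 0.0441), the weakest call of the 15, and did not pass when any single library was left out (adjusted p from 0.0696 to 0.287). Nor did it pass with DESeq2 (adjusted p = 0.267) or under T cell marker (0.647), library size (0.0948) or upper-quartile (0.0949) scaling. Hsd17b7, a ketosteroid reductase of the same complex, was at 1.95 and 2.74 FPKM in IL-27 libraries and 3.13 and 2.92 in controls. The IL-27 libraries differed from each other by 1.44-fold, and the difference between groups did not pass (-0.32 ± 0.17, adjusted p = 0.166). Without IL-27 library 3 the estimate was -0.61 and passed as lower (adjusted p = 0.00956), and without IL-27 library 1 it was -0.08.

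Tm7sf2, a sterol reductase (NCBI Gene 73166, chromosome 19, 6062821 to 6067850), fell the most among the sterol enzymes. It was at 2.03 and 2.23 FPKM in IL-27 libraries and 3.66 and 3.38 in controls, from 48 and 53 expected counts against 85 and 78. The groups lay well apart, and the gene was 37.3% lower (-0.67 ± 0.20, adjusted p = 0.0267). At these counts the call was lost with DESeq2 (adjusted p = 0.19) and without IL-27 library 1 (0.0752), control library 1 (0.175) or control library 3 (0.107). Ebp, the sterol isomerase (NCBI Gene 13595, X chromosome, 8185329 to 8193512), was at 24.1 and 26.8 FPKM in IL-27 libraries and 18.6 and 20.7 in controls, the highest level among the 11 squalene and sterol enzymes. It rose 1.34-fold (0.42 ± 0.084, adjusted p = 0.00387), but lost its call without control library 1 (adjusted p = 0.0584) or when scaled to the T cell markers (0.0762).

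Sc5d, a desaturase of the sterol ring that acts after Ebp, was at 13.7 and 13.0 FPKM in IL-27 libraries and 15.7 and 15.3 in controls. Both IL-27 libraries were lower (-0.26 ± 0.071, adjusted p = 0.0172), a call lost with DESeq2 (adjusted p = 0.151) and without control library 1 (0.145) or control library 3 (0.0555). Dhcr7, which completes cholesterol by reducing its last precursor, was at 14.0 and 15.6 FPKM in IL-27 libraries and 15.0 and 15.3 in controls. The groups overlapped, and the estimate was 0.01 ± 0.076 (adjusted p = 0.96).

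Of the 8 fatty acid synthesis enzymes 5 rose, and when scaled to the T cell markers 2 of them did, Scd2 and Elovl6, while Scd1 passed as lower. Acly, which makes cytosolic acetyl-CoA from citrate, was at 46.9 and 46.3 FPKM in IL-27 libraries and 44.2 and 45.6 in controls and did not pass (0.10 ± 0.047, adjusted p = 0.122). Acaca, acetyl-CoA carboxylase, was at 6.95 and 7.07 FPKM in IL-27 libraries and 6.22 and 6.04 in controls, and rose 1.18-fold (0.24 ± 0.061, adjusted p = 0.0116). Without control library 1 (adjusted p = 0.0607) or control library 3 (0.113) it did not pass. Fdft1, Cyp51 and Acaca also lost their calls with DESeq2 and when scaled to the T cell markers. Fasn, fatty acid synthase (NCBI Gene 14104, chromosome 11, 120805958 to 120825166), was at 18.9 and 19.1 FPKM in IL-27 libraries and 15.6 and 16.1 in controls. Replicates of Fasn agreed closely in both groups, and it rose 1.24-fold (0.31 ± 0.047, adjusted p = 0.000916). It passed when any single library was left out, but not when scaled to the T cell markers (0.16, adjusted p = 0.272).

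Among the elongases, Elovl6 had the firmest rise of all 31 genes. Elovl6, which extends palmitate to stearate (NCBI Gene 170439, chromosome 3, 129532386 to 129638495), was at 6.72 and 6.59 FPKM in IL-27 libraries and 4.35 and 4.09 in controls. The libraries of each group lay close together and the groups far apart, with a rise of 1.63-fold (0.71 ± 0.074, adjusted p = 9.26e-05). It was the one member called under all 12 alternative settings, with log2 fold changes from 0.56 to 0.75 and adjusted p up to 0.00435. Elovl1, which extends very long chains, was at 34.3 and 34.0 FPKM in IL-27 libraries and 28.6 and 27.3 in controls, and rose 1.24-fold (0.30 ± 0.062, adjusted p = 0.00415). It lost its call without control library 3 (adjusted p = 0.0624) or when scaled to the T cell markers (0.337). Elovl5, which extends polyunsaturated chains, was at 54.1 and 51.3 FPKM in IL-27 libraries and 55.4 and 54.3 in controls, and was level after scaling (0.00 ± 0.05, adjusted p = 0.974).

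The paired stearoyl-CoA desaturases, which place a double bond in saturated chains, had log2 fold changes of opposite sign, and that of Scd2 passed the test. Scd1 and Scd2 lie near each other on chromosome 19, Scd1 at 44394450 to 44407709 (NCBI Gene 20249) and Scd2 at 44293676 to 44306864 (NCBI Gene 20250). Scd1 was at 37.2 and 57.4 FPKM in IL-27 libraries 1 and 3 and 82.4 and 76.9 FPKM in controls. Scd2 was at 23.0 and 28.4 FPKM in IL-27 libraries and 19.1 and 19.2 FPKM in controls. Scd1 was thus low in both IL-27 libraries, lowest in library 1, and Scd2 was high in both, highest in library 3. The ratio of Scd1 to Scd2 in FPKM was 1.61 and 2.02 in IL-27 libraries and 4.32 and 4.00 in controls.

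Scd2 rose 1.39-fold (0.48 ± 0.099, edgeR adjusted p = 0.0111), and missed the threshold without control library 1 (adjusted p = 0.0856) or control library 3 (0.08). Scd1 was 38.6% lower without passing (-0.70 ± 0.28, adjusted p = 0.183), since the IL-27 libraries differed from each other by 1.54-fold. Without IL-27 library 1 the log2 fold change of Scd1 was -0.42 (adjusted p = 0.000761), and without IL-27 library 3 it was -1.05 (adjusted p = 7.38e-06). In those fits the single IL-27 library is assumed to vary like the control libraries. Counts of the pair added together, a choice made after seeing the data, gave -0.36 ± 0.21 (adjusted p = 0.299). Of the 50-base stretches of the longest transcripts, 4.66% for Scd1 and 4.01% for Scd2 occur in other genes. The gene sharing most with Scd1 was Scd3 (3.49%), and the gene sharing most with Scd2 was Scd1 (2.68%). A small part of their reads could thus have been assigned to another of these genes.

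**Figure D3:**
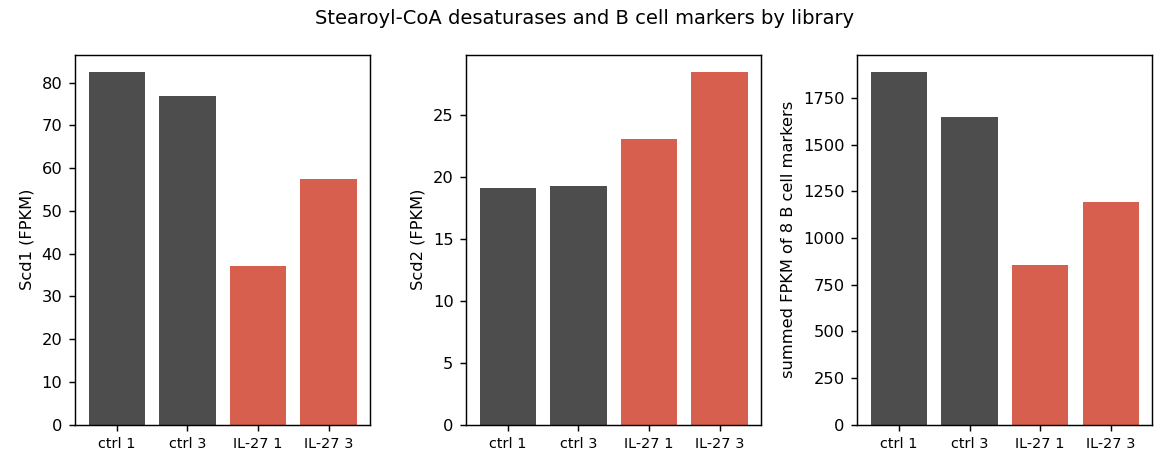
FPKM of Scd1 (left), FPKM of Scd2 (middle) and summed FPKM of 8 B cell markers (right) in each library, as bars from 0 (grey: AAV-ctrl, red: AAV-IL-27). Scd1 and the B cell markers share 1 order of the libraries, with IL-27 library 1 lowest and control library 1 highest, and Scd2 does not.

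Scd1 followed the same order over the 4 libraries as the summed B cell markers, at 856 and 1192 FPKM in IL-27 libraries and 1888 and 1649 FPKM in controls. Of the 8 B cell markers, Cd22 alone did not have that order (109 and 153 FPKM in IL-27 libraries, 163 and 150 in controls). All 8 B cell markers had a negative log2 fold change (median -0.68), and 3 passed. Of the macrophage and monocyte markers, Csf1r, Adgre1, Mertk, Spic and C1qb had the library order of Scd1 in FPKM too. Vcam1, C1qa, C1qc, Cd68 and Lyz2 did not. The order was not particular to these cell types. Among natural killer cell markers Ncr1, Klrb1c and Klra9 had it, and Klra8, Klra4, Klrk1, Klri2, Gzma and S1pr5 did not. Of the other members, only Tm7sf2 and Hsd17b7 had it. The part of B cell, macrophage or natural killer cell RNA in the Scd1 values was not tested.

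Other genes of these pathways gave the surroundings, and their counts stand beside the 39.0% of all tested genes called. Among 9 partners of SREBP processing and sterol sensing, 2 rose, 1 fell and 6 did not pass (median log2 fold change 0.07). Tmem97, a sterol-responsive membrane protein, rose by 0.74 ± 0.15 (edgeR adjusted p = 0.00479), though not without control library 1 (adjusted p = 0.0663). Mbtps1, the protease that makes the first cut in SREBPs, was at 30.1 FPKM on average in IL-27 libraries and 36.1 in controls and changed by -0.21 ± 0.055 in log2 terms (adjusted p = 0.0137). The call of Mbtps1 was lost with DESeq2 (adjusted p = 0.0542) and when IL-27 library 1 (0.0538), control library 1 (0.0639) or control library 3 (0.138) was left out.

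Further sterol and isoprenoid enzymes barely moved, with 1 rise, 1 fall and 12 of 14 tested not passing (median 0.05). Rabggtb and Rabggta, the subunits of the enzyme that prenylates Rab proteins, were called in opposite directions, at 0.26 ± 0.069 (adjusted p = 0.0148) and -0.19 ± 0.064 (adjusted p = 0.0401). Both calls were lost with DESeq2 (adjusted p = 0.118 and 0.274) and without either control library, and Rabggtb also without IL-27 library 3 (adjusted p = 0.064) and Rabggta without IL-27 library 1 (0.119). Ggps1, which makes geranylgeranyl diphosphate, stood at -0.15 ± 0.06 (adjusted p = 0.0696).

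Of 12 genes of sterol uptake, efflux and LXR signalling, the sterol-activated counterpart of SREBPs, 2 fell, none rose past the threshold and 10 did not pass (median -0.06). Mylip, an LXR target that marks lipoprotein receptors for degradation, went from 42.3 to 29.3 FPKM on average (-0.48 ± 0.058, adjusted p = 0.000215) and passed under all 12 alternatives. Nr1h3, which encodes LXR alpha, a factor abundant in macrophages, went from 2.35 to 1.13 FPKM on average (-0.97 ± 0.25, adjusted p = 0.0144). Its call was lost with DESeq2 (adjusted p = 0.0929) and without IL-27 library 3 (0.0506), control library 1 (0.146) or control library 3 (0.0556), and macrophage and monocyte markers had a median of -1.22 in the same libraries. The part of those cells in it was not tested. Npc2, which hands cholesterol out of lysosomes, stood at 0.19 ± 0.067 (adjusted p = 0.0516).

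Further fatty acid synthesis and activation genes split, with 5 of 20 tested rising, 4 falling and 11 not passing (median 0.06). Acsl5, which activates long chains as CoA esters, went from 41.4 to 70.4 FPKM on average (0.81 ± 0.055, adjusted p = 6.29e-06). Fabp5, a fatty acid carrier, went from 4.36 to 9.38 FPKM (1.15 ± 0.23, adjusted p = 0.00405), though not past the threshold without control library 1 (adjusted p = 0.051). Tecr, the reductase that completes each elongation cycle, fell from 107 to 77.8 FPKM (-0.41 ± 0.052, adjusted p = 0.000288), in contrast to the elongases Elovl6 and Elovl1.

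Of 16 fatty acid oxidation genes, which run the opposite reaction in mitochondria and peroxisomes, 6 rose, 1 fell and 9 did not pass (median 0.15). Hadhb, a subunit of the mitochondrial trifunctional protein, rose by 0.49 ± 0.054 (adjusted p = 0.000123), Acadl, a long-chain dehydrogenase, by 0.50 ± 0.058 (adjusted p = 0.00018) and Ech1, an isomerase, by 0.41 ± 0.069 (adjusted p = 0.00137). Ech1 lost its call when scaled to the T cell markers (adjusted p = 0.0868). Fatty acid genes of both synthesis and oxidation were thus among those that rose, and no test compared the lists.

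**Figure D4:**
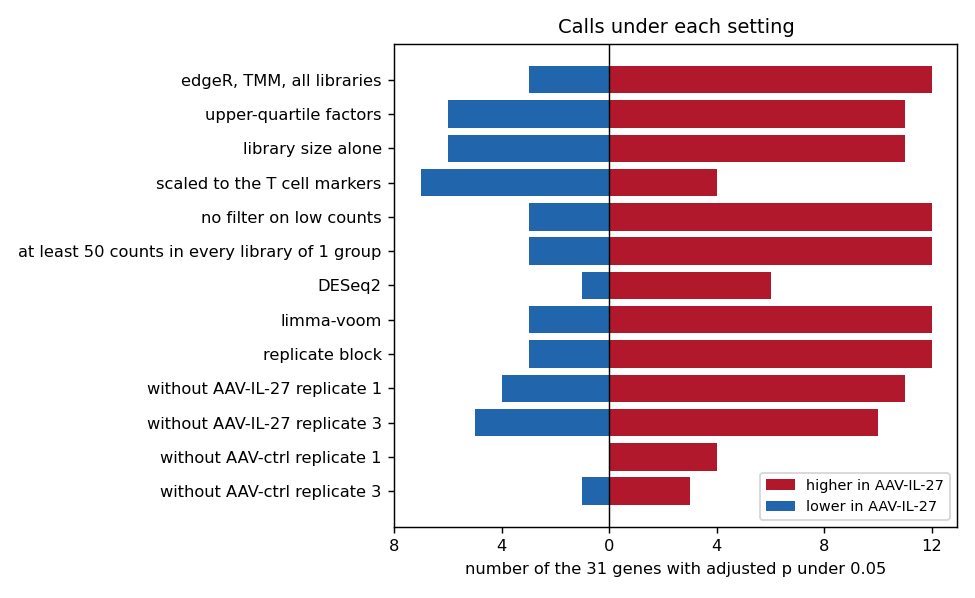
Number of the 31 genes called higher (red, to the right of 0) or lower (blue, to the left of 0) in IL-27 libraries at an adjusted p under 0.05, for edgeR with all libraries (top) and each of 12 alternatives. Leaving out a control library gives 4 or 3 higher and 0 or 1 lower, and scaling to the T cell markers gives 4 higher and 7 lower.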

How the data were processed

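RNA sequencing libraries of splenic T cells were compared, 2 from mice given AAV-IL-27 and 2 from mice given AAV-ctrl. The deposited table gives expected counts per gene and library, estimated counts that need not be whole, and a second value taken as FPKM. The unit of the deposited FPKM was inferred from the values, since the header gives none. Per the submitters' processing notes, the build was GRCm38.p6 and the tools were RSEM 1.2.12, HISAT2 2.0.4, DESeq2 1.4.5 and Bowtie2 2.2.5, without roles. The labels give the molecule as polyA RNA but the library method as rRNA removal. The sources used here do not give strand use.

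Expected counts were rounded, genes were filtered with filterByExpr, scaled with TMM and compared in edgeR 4.0.16 under R 4.3.3 (robust quasi-likelihood fit without a block, two-sided), and p-values were adjusted by Benjamini-Hochberg over 12887 genes. The SE is the log2 fold change divided by the square root of F. FPKM describe levels and were not tested. The alternatives were upper-quartile factors, library size alone, factors from T cell markers, 2 filters, DESeq2 1.42.0, limma-voom (limma 3.58.1), a replicate block and each library left out. The fit was tested on simulated data. The labels do not say that equal replicate numbers mark paired samples. Within a group the counts differed beyond sampling noise (chi-square over its degrees of freedom, 2.49 in the controls and 6.47 in the treated group).

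The 31 genes and all lists were chosen with earlier results of these data known. All 31 members were named, with the 3 smallest p of each list of other pathway genes, of which 1 is not reported here. The 50-base comparison used GENCODE M21 transcripts, sense strand.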

Additional observations from a re-analysis of the deposited data

How the results depend on the processing

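Members called higher numbered 12 by edgeR with TMM. The number was 4 when scaled to the T cell markers and 6 with DESeq2, and ranged from 3 to 11 with 1 library left out. Members called lower numbered 3. The number was 6 with upper-quartile factors, 6 with library size alone, 7 when scaled to the T cell markers and 1 with DESeq2, and ranged from 0 to 5 with 1 library left out. Without control library 1 none fell, and without IL-27 library 3, 5 did. All genes called numbered 5023, and 3243 with DESeq2. With 1 library left out they ranged from 2635 to 4886. The filters and limma-voom changed neither count of members. The replicate block gave 12 higher and 3 lower, 15 of them the same genes, and 4971 calls over all genes, and same-numbered libraries did not deviate together (correlation across genes -0.000736).

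For 46 genes from the naming rule and 4 others picked with their values in view, 599 alternative estimates were made, of which 478 kept their direction and side of the threshold, 78 lost a call, 26 gained one and 17 turned sign. All that turned sign were members that did not pass by edgeR with TMM. Dhcr7 turned to -0.0443 with upper-quartile factors, -0.0438 with library size and -0.142 with T cell markers, and ranged from -0.0694 to 0.0785 with 1 library left out. Insig1 turned to -0.00218, -0.00133 and -0.112 under those scalings and ranged from -0.126 to 0.205 with 1 library left out. Srebf1 (-0.104) and Acly (-0.0507) turned with T cell markers. With 1 library left out Srebf1 ranged from -0.0388 to 0.139, Mvk from -0.473 to 0.0057, Sqle from -0.213 to 0.0591 and Elovl5 from -0.0417 to 0.0355. The cause was not tested. With 2 libraries a group, the depth of Idi1 and Tm7sf2, at 48 to 139 expected counts per library, limits their precision.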

Other observations

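The 4 lipid genes below were picked with their values in view. Abca1, the cholesterol efflux pump, was at 4.12 and 6.25 FPKM in IL-27 libraries 1 and 3 and at 10.04 and 9.32 FPKM in controls (log2 fold change -0.85 ± 0.24, edgeR adjusted p = 0.0895). It was lowest in IL-27 library 1 and highest in control library 1, the order also seen for Scd1, Tm7sf2 and some macrophage markers, Csf1r among them. The part of macrophage RNA in the Abca1 values was not tested. Like Scd1, Abca1 passed without IL-27 library 1 (-0.58, adjusted p = 0.000372) or IL-27 library 3 (-1.18, adjusted p = 1.1e-05), and it also passed with DESeq2 (adjusted p = 0.0232) and when scaled to the T cell markers (adjusted p = 1.09e-09).

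Acacb, the mitochondrial acetyl-CoA carboxylase whose product restrains fatty acid oxidation, had 43 and 53 expected counts in IL-27 libraries and 13 and 21 in controls (1.51 ± 0.32, adjusted p = 0.00557). Without control library 1 it missed the threshold (adjusted p = 0.0783). Fads2, a desaturase of polyunsaturated fatty acids, was at 2.43 and 2.68 FPKM in IL-27 libraries and 1.55 and 0.72 FPKM in controls (1.21 ± 0.34, adjusted p = 0.0194). The controls differed widely, and without control library 3 the estimate was 0.76 (adjusted p = 0.139), while it missed the threshold without IL-27 library 3 (adjusted p = 0.0565) and with DESeq2 (0.0536). Acss2, which makes acetyl-CoA from acetate, was at 12.7 and 10.7 FPKM in IL-27 libraries and 15.9 FPKM in both controls and changed by -0.40 ± 0.09 in log2 terms (adjusted p = 0.00724). It missed the threshold without control library 1 (adjusted p = 0.0589) or control library 3 (0.0705).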
